A study of Rattus norvegicus with 10 samples.

Results

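Collagen genes were followed in whole retina of newborn rats of strains that differ in their susceptibility to oxygen-induced retinopathy. They were taken by symbol, as every gene whose probe set carries a single platform symbol of the form Col, a number, a and a number, with 1 probe set per gene, that with the highest mean over all arrays. This gave 25 collagen genes of 14324 genes measured, on 27 probe sets, and Col6a4 alone had several. By chain type, 3 were basement membrane collagens, 10 fibrillar, 5 fibril-associated, 2 of beaded filaments or anchoring fibrils, 2 short chain network collagens and 3 transmembrane collagens. Another 20 collagen genes, among them Col4a2, Col15a1, Col18a1 and Col6a1 to Col6a3, had no singly named probe set and were not analysed here, so the basement membrane class rested on Col4a1, Col4a3 and Col4a4.

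The groups were SD (Sprague Dawley) rats in cyclic hyperoxia (2 pools), SD rats in room air (3 pools), F344 (Fischer) rats in cyclic hyperoxia (3 pools) and F344 rats in room air (2 pools), all at postnatal day 3. Hyperoxic litters were kept with their mothers, starting within 12 hours of birth, in oxygen that alternated between 80% and 21% every 24 hours. Each pool held retinal RNA of 3 rats of 2 litters and filled 1 Affymetrix rat whole-transcript array, and the pools of a group came from different rats. The study treats F344 as the resistant strain and SD as the susceptible one, and asks how their retinas differ in expression in the early, hyperoxic stage of the model. All values below are log2 expression values, so a difference of 1 is a doubling, and a pool's rats are averaged within it.

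Collagens are triple-helical matrix proteins. Type IV chains form the sheet-like networks of basement membranes, which in the retina lie around blood vessels and at the inner limiting membrane, whereas fibrillar chains form the fibres of sclera, vitreous, cartilage and connective tissue. In the newborn rat the retinal vessels are still growing outwards from the optic disc over an astrocyte template, and high oxygen is known to halt that growth and to cause loss of young vessels.

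The arrays had medians between 5.9 and 6. The 8 measured markers of retinal neurons and progenitors averaged between 9.22 and 9.54 per array, against 5.04 to 5.25 for 8 skeletal muscle markers. Of the 14324 genes, 7 (0.0489%) were called in SD hyperoxia against SD room air and 1 (0.00698%) in F344 hyperoxia against F344 room air, by limma with a Benjamini-Hochberg adjusted p of at most 0.05 over all 27342 probe sets. Pool 3 of SD room air stood apart from the other pools for 3 collagen genes. It was also high for some markers of neighbouring tissues and of vessels, as described below. The type I and III, Col4a1 and Col5a3 results and the class medians for hyperoxia in SD are given with and without it. This pool and pool 3 of F344 hyperoxia are taken to be the arrays that the design describes as additions made after a principal component analysis of the other 8, an inference from their numbers.

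**Figure D1:**
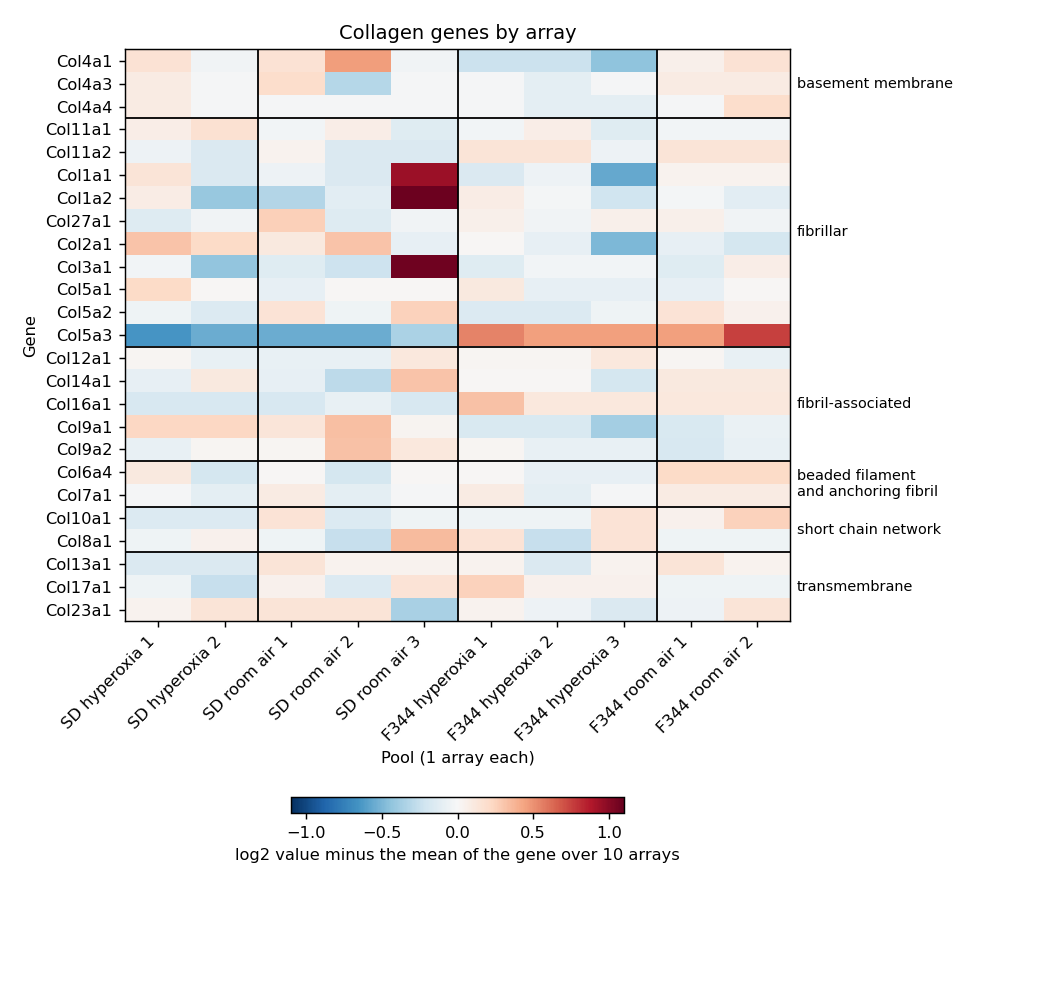
Each row is a collagen gene, grouped by chain type, and each column an array, with the SD hyperoxia and SD room-air pools left of the F344 hyperoxia and F344 room-air pools. Colour gives the log2 value minus that gene's mean over the 10 arrays. Col5a3 separates the strains, and Col1a1, Col1a2 and Col3a1 are high in SD room-air pool 3.

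No collagen gene was called for hyperoxia in either strain, and estimates were small. In SD the 25 estimates of hyperoxia minus room air ran between -0.47 and 0.15, with a median of -0.03 beside 0 over all genes. The F344 estimates ran between -0.42 and 0.17, with a median of -0.10 beside 0 over all genes. At an unadjusted limma p under 0.05 there was 1 collagen of 25 in SD, against 4.68% of all genes, and there were 2 of 25 in F344, against 4.91% of all genes. Estimates were below 0 for 16 of 25 collagens in SD, where 46% of all genes lay below 0, and for 16 of 25 in F344, where 48.2% did. Averaged over the strains, 3 of 25 had an unadjusted limma p under 0.05, against 3.62% of all genes. Without SD room-air pool 3, the SD count was 13 below and 11 above 0.

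**Figure D2:**
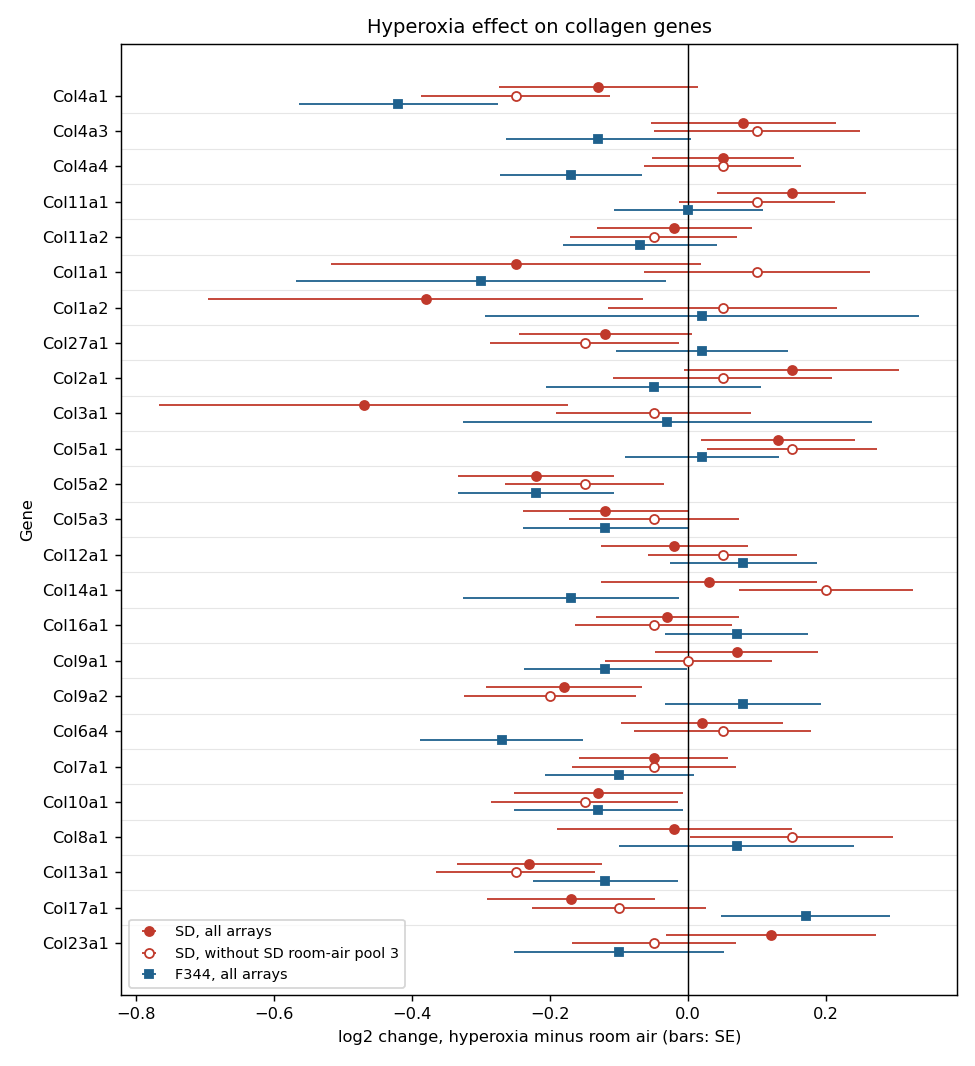
The log2 difference of hyperoxia minus room air, with its SE from the limma fit, is drawn for each of the 25 collagen genes in SD with all arrays (filled red circles), in SD without SD room-air pool 3 (open red circles) and in F344 (blue squares). Col1a1, Col1a2 and Col3a1 move from -0.25, -0.38 and -0.47 in SD to 0.10, 0.05 and -0.05 when that pool is left out.

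Col4a1 encodes a chain of the type IV heterotrimer found in nearly all basement membranes, vessels included. Its start lies 77 bases from that of Col4a2, on the opposite strand, in RefSeq's promoter windows on the build GRCr8. The 300 bases at the Col4a1 start, from 250 before it to 50 after it, are shown because this gene had the lowest F344 estimate of the 25. The window lies at chr16:84885347-84885646 on the + strand. Capitals mark GCGTG, a form of the core of the hypoxia response element, and CCAAT, on either strand.
Col4a1: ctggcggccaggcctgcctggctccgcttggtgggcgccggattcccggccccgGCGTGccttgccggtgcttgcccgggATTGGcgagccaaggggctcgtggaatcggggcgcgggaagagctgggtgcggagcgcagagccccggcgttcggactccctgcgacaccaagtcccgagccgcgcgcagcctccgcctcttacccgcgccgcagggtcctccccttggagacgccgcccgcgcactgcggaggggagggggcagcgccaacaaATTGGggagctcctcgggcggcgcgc
Of the 25 collagens, 20 had such a window. GCGTG (or its reverse complement CACGC) was in 7 of them (35.0%), including Col4a1, Col4a4 and Col5a3, against 29.7% of all 33469 windows, and CCAAT (or ATTGG) in 7 (35.0%) against 37.5%. ACGTG (or CACGT), the other form of the hypoxia response element core, was in 0 of the 20, against 19.3% of all windows. GGGCGG (or CCGCCC), a GC box, was in 11 (55.0%) against 33.1%, and TATAAA (or TTTATA) in 4 (20.0%) against 14.2%. These are counts of letters in a window and not of bound sites.

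In F344, Col4a1 had 5.9, 5.9 and 5.7 in hyperoxia pools, against 6.2 and 6.3 in room-air pools. The hyperoxia pools lay below both room-air pools, but the difference of -0.42 (SE 0.144, unadjusted p = 0.0132) did not pass, with a limma adjusted p of 0.921. SD hyperoxia pools had 6.3 and 6.1, against 6.3, 6.6 and 6.1 in SD room-air pools. There the groups overlapped and the estimate was -0.13 (SE 0.144, limma adjusted p = 0.858), or -0.25 (SE 0.137, limma adjusted p = 0.927) without SD room-air pool 3. The effect in SD minus that in F344 was 0.28 (SE 0.203, limma adjusted p = 0.707), and the effect averaged over both strains was -0.27 (SE 0.102, limma adjusted p = 0.99). Within hyperoxia, all SD pools lay above all F344 pools, by 0.37 (SE 0.144, limma adjusted p = 0.647), and the room-air difference was 0.08 (SE 0.144, limma adjusted p = 0.854). Without SD room-air pool 3 the difference of effects was 0.17 (SE 0.185, limma adjusted p = 0.866) and the room-air strain difference 0.20 (SE 0.137, limma adjusted p = 0.651).

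Col4a3 and Col4a4 encode chains of the type IV network best known from the glomerulus, and their starts lie 413 bases apart on opposite strands. Col4a4 had 5.1, 5.0 and 5.0 in F344 hyperoxia pools, against 5.1 and 5.3 in F344 room-air pools, a difference of -0.17 (SE 0.103). In SD it had 5.2 and 5.1 in hyperoxia pools, against 5.1 in each room-air pool, a difference of 0.05 (SE 0.103). Col4a3 ran between 4.7 and 5.2 over all arrays, with differences of 0.08 in SD and -0.13 in F344. All 3 basement membrane collagens thus had estimates below 0 in F344, with a median of -0.17. The SD median was 0.05 with all arrays and also without SD room-air pool 3, and none of the 3 passed in either strain.

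Endothelial markers had lower means in hyperoxia pools of both strains, and, as with Col4a1, none of them passed in either. The Col4a1 estimates of -0.13 in SD and -0.42 in F344 lay within the ranges of the single markers. These were -0.82 to 0.03 in SD and -0.42 to -0.02 in F344. Col4a1 lay near opposite ends of the 2 ranges. In SD only Erg (-0.12) and Robo4 (0.03) had higher estimates than Col4a1. In F344 Col4a1 equalled the lowest markers, Cd34 and Tek, at -0.42 each. The 13 of 18 listed markers that were measured averaged 4.92 and 4.85 in SD hyperoxia pools, against 5.06, 5.22 and 5.42 in SD room-air pools. They averaged 4.90, 4.87 and 4.96 in F344 hyperoxia pools, against 5.08 and 5.28 in F344 room-air pools. The hyperoxia pools lay below the room-air pools in both strains, with 12 of 13 markers below 0 in SD (median -0.33) and 13 of 13 in F344 (median -0.27), against 46% and 48.2% of all genes. By limma 0 of 13 were called in either strain, and 7 in SD and 6 in F344 had an unadjusted p under 0.05, against 4.68% and 4.91% of all genes. Pericyte and smooth muscle markers had estimates below 0 for 11 of 11 genes in SD and for 9 of 11 in F344, with a median of -0.25 in each. The SD estimates of both lists include SD room-air pool 3, which was high for them too. It exceeded the mean of the other SD room-air pools for 11 of 13 endothelial markers (median 0.25). For pericyte and smooth muscle markers it did so for 7 of 11 (median 0.20). It was above all 9 other arrays for 7 of 13 and 4 of 11, against 9.51% of all genes. SD medians of these lists without that pool were not computed. Fewer cells of a type and less RNA per cell cannot be told apart in whole retina, and the part of vessel cells in the Col4a1 values was not tested.

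**Figure D3:**
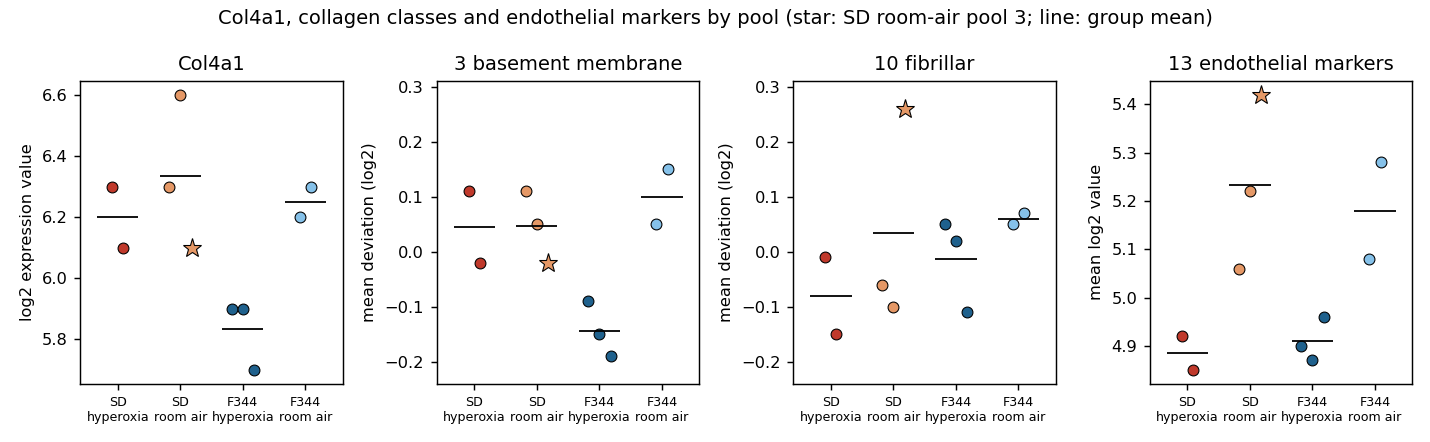
Each point is a pool, with the SD hyperoxia, SD room-air, F344 hyperoxia and F344 room-air groups along the x axis; the line is the group mean and the star SD room-air pool 3. The panels show the log2 value of Col4a1, the mean deviation of the 3 basement membrane and of the 10 fibrillar collagens from their 10-array means, and the mean log2 value of 13 endothelial markers. F344 hyperoxia pools are lowest for the basement membrane class, between -0.19 and -0.09.

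Set against each other as classes, basement membrane and fibrillar collagens differed by little. Of the 3 basement membrane collagens, Col4a3 (mean 5.01) and Col4a4 (mean 5.11) lay below the lowest array median of 5.9. Some fibrillar collagens did too, such as Col5a2 (mean 5.25). The mean deviation of the basement membrane class minus that of the fibrillar class was 0.13 in each SD hyperoxia pool, against 0.18, 0.15 and -0.28 in SD room-air pools. It was -0.13, -0.17 and -0.07 in F344 hyperoxia pools, against 0 and 0.08 in F344 room-air pools. The lowest value of all belonged to SD room-air pool 3, whose fibrillar class stood 0.26 above its mean, or 0.07 below it (-0.07) once Col1a1, Col1a2 and Col3a1 were set aside. These 3 were the only collagens at least 1 log2 unit higher in that pool than in the mean of the other SD room-air pools. A lower class mean without them was thus fixed by the choice. For the fibrillar class the median estimate of hyperoxia minus room air was -0.12 in SD (7 of 10 below 0) and -0.04 in F344 (6 of 10 below 0), and without SD room-air pool 3 the SD median was 0 (5 of 10 below 0). With brighter probe sets only, the basement membrane class was Col4a1 alone and the fibrillar class 5 genes. Their SD medians were then -0.13 and 0.13, against 0.05 and -0.12 with all probe sets, so the order of the classes was reversed. A score over the members was not tested.

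Col1a1 and Col1a2 encode the chains of type I collagen and Col3a1 that of type III, the main fibres of sclera, skin and vessel walls. Col1a1 had 7.4 and 7.1 in SD hyperoxia pools, against 7.2, 7.1 and 8.2 in SD room-air pools. Col1a2 had 6.4 and 5.9 in SD hyperoxia pools, against 6.0, 6.2 and 7.4 in SD room-air pools. Col3a1 had 5.5 and 5.1 in SD hyperoxia pools, against 5.4, 5.3 and 6.6 in SD room-air pools. In all of them only SD room-air pool 3 stood high, 1.05, 1.30 and 1.25 above the mean of the other SD room-air pools, which is 2.07-fold, 2.46-fold and 2.38-fold.

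These were 3 of 25 collagens at least 1 log2 unit higher in that pool, against 45 of 14324 genes (0.314%), and the other 22 differed by -0.50 to 0.50. The same pool was above all 9 other arrays for 6 of 25 collagens, against 9.51% of all genes. In F344 the hyperoxia pools had 7.1, 7.2 and 6.7 for Col1a1, against 7.3 in each room-air pool, so that the groups did not overlap. Col1a2 had 6.4, 6.3 and 6.1 in F344 hyperoxia pools, against 6.3 and 6.2 in F344 room-air pools. Col3a1 had 5.4, 5.5 and 5.5 in F344 hyperoxia pools, against 5.4 and 5.6 in F344 room-air pools. Col1a2 and Col3a1 overlapped between the F344 groups. F344 hyperoxia pool 3 was at least 1 log2 unit higher than the mean of the other F344 hyperoxia pools for 0 of 25 collagens, against 0.258% of all genes.

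The estimates in SD turned on that pool. Hyperoxia minus room air was -0.25 (SE 0.268) for Col1a1, -0.38 (SE 0.315) for Col1a2 and -0.47 (SE 0.296) for Col3a1 with all arrays, at limma adjusted p values of 0.858, 0.831 and 0.815. Without SD room-air pool 3 they were 0.10 (SE 0.164), 0.05 (SE 0.166) and -0.05 (SE 0.141), so that Col1a1 and Col1a2 changed sign. F344 estimates were -0.30 (SE 0.268) for Col1a1, 0.02 (SE 0.315) for Col1a2 and -0.03 (SE 0.296) for Col3a1.

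The Col1a2 start is shown because the gene had the largest excess in SD room-air pool 3. Its window lies at chr4:33518307-33518606 on the + strand of GRCr8, and capitals mark the CCAAT box, read here on the other strand, and the TATAAA letters.
Col1a2: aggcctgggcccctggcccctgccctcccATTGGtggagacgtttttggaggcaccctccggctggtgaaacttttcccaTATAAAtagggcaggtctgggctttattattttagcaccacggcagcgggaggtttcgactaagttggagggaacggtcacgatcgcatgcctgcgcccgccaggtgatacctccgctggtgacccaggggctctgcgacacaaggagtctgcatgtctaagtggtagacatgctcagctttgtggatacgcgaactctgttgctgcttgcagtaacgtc
Of the 3 genes, only Col1a2 had a window in the RefSeq table used.

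Partners of fibrillar collagen, lens markers and surface markers were high in the same SD room-air pool, while fibroblast and mesenchyme markers were mixed. Of 15 measured partners of fibrillar collagen, 14 were higher there than the mean of the other SD room-air pools. Their median was 0.60, beside 0 over all genes. Of 11 measured fibroblast and mesenchyme markers, some of them also in that partner list, 8 were higher and 3 lower, with a median of 0.10. Postn, which encodes periostin, a matrix protein of connective tissue, had 5.3 and 4.6 in SD hyperoxia pools, against 4.4, 4.7 and 6.6 in SD room-air pools. Dcn, which encodes decorin, a proteoglycan that binds collagen fibrils, had 5.2 and 4.2 in SD hyperoxia pools, against 4.4, 4.9 and 6.2 in SD room-air pools. In F344 Dcn had 4.9, 5.3 and 5.7 in hyperoxia pools, against 4.4 and 4.2 in room-air pools. The 5.7 was in F344 hyperoxia pool 3, where Col1a1 had its lowest value, 6.7. All 8 measured lens markers were higher in SD room-air pool 3 (median 0.97), and the crystallin gene Cryba1 exceeded the mean of the other SD room-air pools by 2.50. Cryba1 also reached 8.2 in F344 hyperoxia pool 2, where Col1a1 had 7.2 and Col3a1 5.5. All 7 measured markers of surface and corneal epithelium exceeded the mean of the other SD room-air pools, by 0.15 to 1.20 (median 0.45). The largest excess was that of the keratin gene Krt4, the 1 of 7 at least 1 log2 unit higher. Of 8 markers of pigment and ciliary epithelium, 6 exceeded that mean, and 0 of 8 were above all 9 other arrays, against 9.51% of all genes. Ttr had 9.9 and Tyr 6.1 in SD room-air pool 3, against 10 and 6.6 in F344 hyperoxia pool 3. The 8 skeletal muscle markers had a median of 0, and the 8 cartilage and sclera markers one of 0.20. The part of these tissues in the type I and III values was not tested.

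**Figure D4:**
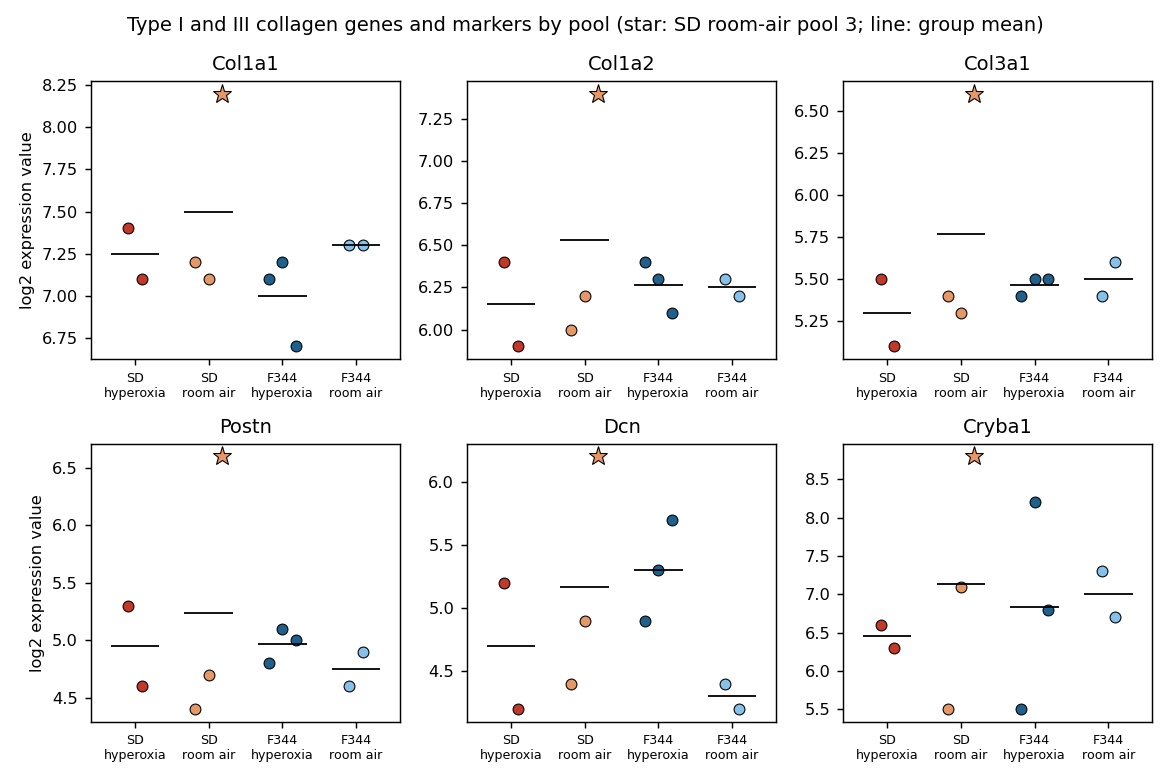
The log2 values of Col1a1, Col1a2, Col3a1, Postn, Dcn and the lens gene Cryba1 are drawn for each pool, by group from SD hyperoxia and SD room air to F344 hyperoxia and F344 room air. The line is the group mean and the star SD room-air pool 3, which reaches 8.2 for Col1a1, 7.4 for Col1a2, 6.6 for Col3a1 and 8.8 for Cryba1.

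Col5a3 was the one collagen called between the strains. It encodes a chain of type V collagen, a minor fibrillar collagen that is built into type I fibrils. SD hyperoxia pools had 5.3 and 5.4, against 6.5, 6.4 and 6.4 in F344 hyperoxia pools. SD room-air pools had 5.4, 5.4 and 5.6, against 6.4 and 6.7 in F344 room-air pools. All 5 SD pools lay below all 5 F344 pools. The difference of SD minus F344 was -1.08 in hyperoxia (SE 0.119, limma adjusted p = 0.000774) and -1.08 in room air (SE 0.119, limma adjusted p = 0.000934), 2.12-fold lower in SD in each.

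By p it ranked behind 12 other genes in room air and 15 in hyperoxia. It was 1 of 25 collagens called in room air, against 0.552% of all genes (0.175% lower), and 1 of 25 in hyperoxia, against 0.475% of all genes (0.237% lower). The call held when any single array was left out, with limma adjusted p values up to 0.0469 in room air and 0.0409 in hyperoxia. Without SD room-air pool 3 the room-air difference was -1.15 (SE 0.123, limma adjusted p = 0.00139). Fitted on the room-air pools alone, the difference of -1.08 had a limma adjusted p of 0.156. The effect of hyperoxia minus room air was -0.12 (SE 0.119) in each strain, and the difference of these effects was 0.00 (SE 0.169).

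Its window lies at chr8:27625899-27626198 on the - strand of GRCr8 and is shown as that of the single collagen that passed. Capitals mark GCGTG and CCAAT.
Col5a3: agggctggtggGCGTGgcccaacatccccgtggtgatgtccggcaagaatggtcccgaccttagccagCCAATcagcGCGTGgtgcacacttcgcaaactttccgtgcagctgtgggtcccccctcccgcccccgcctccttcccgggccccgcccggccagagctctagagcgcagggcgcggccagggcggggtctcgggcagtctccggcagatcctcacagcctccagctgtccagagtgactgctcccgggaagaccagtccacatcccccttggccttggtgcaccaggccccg
Of 12 measured neighbours, the 6 on each side of Col5a3 in gene order, none was called lower in SD. Mrpl4, which encodes a mitochondrial ribosomal protein, was 0.95 higher in SD than in F344 in room air (limma adjusted p = 0.0161), and 0.42 higher in hyperoxia (limma adjusted p = 0.598). A difference between the strains in the RNA and one in the probes' match to it cannot be told apart here.

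**Figure D5:**
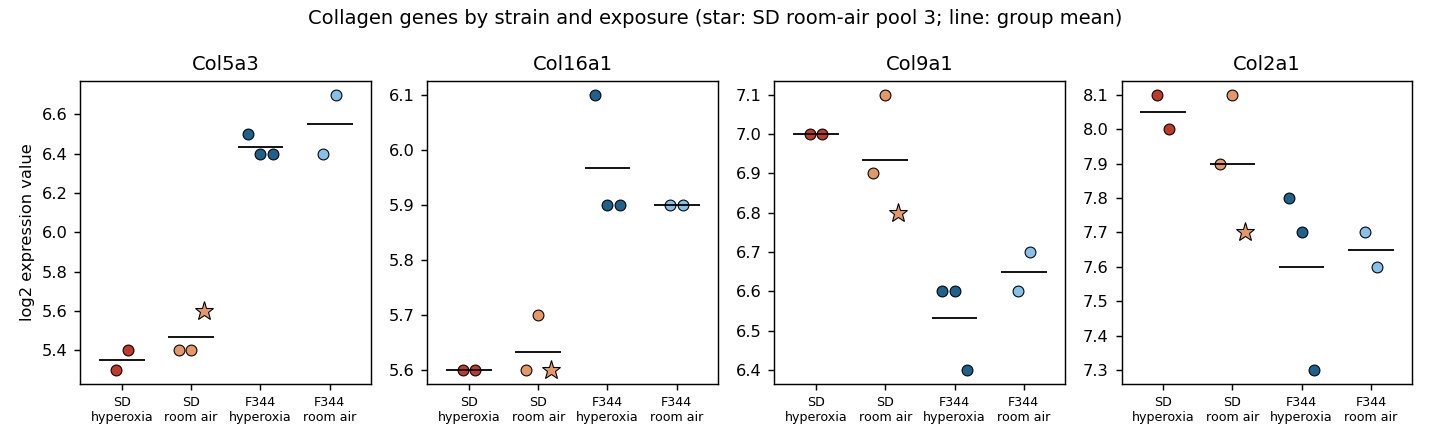
The log2 values of Col5a3, Col16a1, Col9a1 and Col2a1 are drawn for each pool, by group from SD hyperoxia and SD room air to F344 hyperoxia and F344 room air. The line is the group mean and the star SD room-air pool 3. For Col5a3 the SD pools lie between 5.3 and 5.6 and the F344 pools between 6.4 and 6.7.

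Other collagens separated the strains without passing the test. At an unadjusted limma p under 0.05 there were 6 of 25 collagens in hyperoxia, against 6.71% of all genes, and 5 of 25 in room air, against 11.4% of all genes. Both counts include Col5a3, which passed. Counting both exposures, 3 of 25 collagens had SD pools that did not overlap the F344 pools, against 2.35% of all genes: Col5a3 and Col16a1 lower in SD (1.08% of all genes) and Col9a1 higher in SD (1.28% of all genes). Col16a1, a fibril-associated collagen, had 5.6 and 5.6 in SD hyperoxia pools, against 6.1, 5.9 and 5.9 in F344 hyperoxia pools. It had 5.6, 5.7 and 5.6 in SD room-air pools, against 5.9 and 5.9 in F344 room-air pools. The differences were -0.37 (SE 0.104) in hyperoxia and -0.27 (SE 0.104) in room air, at limma adjusted p values of 0.295 and 0.361.

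Col9a1 and Col9a2 encode chains of type IX collagen, which coats type II fibrils in cartilage and vitreous. Col9a1 had 7.0 and 7.0 in SD hyperoxia pools, against 6.6, 6.6 and 6.4 in F344 hyperoxia pools. It had 6.9, 7.1 and 6.8 in SD room-air pools, against 6.6 and 6.7 in F344 room-air pools. The differences were 0.47 (SE 0.118) in hyperoxia and 0.28 (SE 0.118) in room air, at limma adjusted p values of 0.194 and 0.393. Col9a2 had 5.9 and 6.0 in SD hyperoxia pools, against 6.0, 5.9 and 5.9 in F344 hyperoxia pools, a difference of 0.02. In room air Col9a2 had 6.0, 6.3 and 6.1 in SD pools, against 5.8 and 5.9 in F344 pools, a difference of 0.28 (SE 0.113, limma adjusted p = 0.374).

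Col2a1 encodes type II collagen, the main fibril of cartilage and vitreous. Its values were 8.1 and 8.0 in SD hyperoxia pools, against 7.8, 7.7 and 7.3 in F344 hyperoxia pools. In room air they were 7.9, 8.1 and 7.7 in SD pools, against 7.7 and 7.6 in F344 pools. SD lay above F344 in each pool of hyperoxia, by 0.45 (SE 0.156, limma adjusted p = 0.507), and by 0.25 (SE 0.156, limma adjusted p = 0.573) on average in room air, where pools touched at 7.7. Col11a1, whose product starts type II fibrils, had 6.1 and 6.2 in SD hyperoxia pools, against 6.0, 6.1 and 5.9 in SD room-air pools. In F344 it had 6.0, 6.1 and 5.9 in hyperoxia pools, against 6.0 in each room-air pool.

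Of the remaining type V chains, Col5a2 had 5.2 and 5.1 in SD hyperoxia pools, against 5.4, 5.2 and 5.5 in SD room-air pools. In F344 it had 5.1, 5.1 and 5.2 in hyperoxia pools, against 5.4 and 5.3 in room-air pools. The estimate of hyperoxia minus room air was -0.22 (SE 0.113) in each strain, the groups did not overlap in F344, and the average of -0.22 (SE 0.0801, unadjusted p = 0.0189) had a limma adjusted p of 0.99. Col5a1, whose product nucleates type I fibrils, had 6.6 and 6.4 in SD hyperoxia pools, against 6.3, 6.4 and 6.4 in SD room-air pools. In F344 Col5a1 had 6.5, 6.3 and 6.3 in hyperoxia pools, against 6.3 and 6.4 in room-air pools. None of these values passed.

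Col13a1, a transmembrane collagen of cell adhesion sites, had 4.9 and 4.9 in SD hyperoxia pools, against 5.2, 5.1 and 5.1 in SD room-air pools. It was the 1 of 25 collagens whose SD hyperoxia pools lay wholly below SD room air, against 7.34% of all genes, while 0 of 25 lay wholly above, against 6.67%, and its difference was -0.23 (SE 0.105, limma adjusted p = 0.815). In F344 Col13a1 had 5.1, 4.9 and 5.1 in hyperoxia pools, against 5.2 and 5.1 in room-air pools, a difference of -0.12 (SE 0.105). Of the 25 collagens, 6 had F344 hyperoxia pools wholly below F344 room air, against 6.32% of all genes: Col4a1, Col4a3, Col1a1, Col5a2, Col14a1 and Col6a4. Col17a1 was the 1 collagen wholly above, against 6.6% of all genes.

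Col6a4, a chain of the beaded filaments around cells, had 5.3, 5.2 and 5.2 in F344 hyperoxia pools, against 5.5 and 5.5 in F344 room-air pools, a difference of -0.27 (SE 0.118, limma adjusted p = 0.921). In SD Col6a4 had 5.4 and 5.1 in hyperoxia pools, against 5.3, 5.1 and 5.3 in room-air pools. Col17a1, the hemidesmosome collagen of epithelia, had 4.8 and 4.6 in SD hyperoxia pools, against 4.9, 4.7 and 5.0 in SD room-air pools. In F344 Col17a1 had 5.1, 4.9 and 4.9 in hyperoxia pools, against 4.8 in each room-air pool. Its effect in SD minus that in F344 was -0.33 (SE 0.173, limma adjusted p = 0.662), the smallest p among the collagens for that contrast, and 0 of 25 collagens had an unadjusted limma p under 0.05 there, against 6.98% of all genes. Col10a1, a network collagen of growing cartilage, had 4.8 and 4.8 in SD hyperoxia pools, against 5.1, 4.8 and 4.9 in SD room-air pools. Its F344 values were 4.9, 4.9 and 5.1 in hyperoxia pools, against 5.0 and 5.2 in room-air pools, and its estimate was -0.13 (SE 0.122) in each strain.

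The last 7 collagens (Col7a1, Col8a1, Col11a2, Col12a1, Col14a1, Col23a1 and Col27a1) had estimates of hyperoxia minus room air between -0.12 and 0.12 in SD and between -0.17 and 0.08 in F344. None passed in any contrast. The mean values of 15 of the 25 collagens lay below the lowest array median.

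The enzymes that build collagen gave the one hyperoxia call in the pathway. Loxl2, a lysyl oxidase that cross-links collagen and acts on type IV collagen, had 5.7 and 5.8 in SD hyperoxia pools, against 6.7, 6.7 and 6.4 in SD room-air pools. In F344 it had 5.6, 6.0 and 5.4 in hyperoxia pools, against 6.6 and 6.4 in room-air pools. Hyperoxia pools lay below room-air pools in both strains, and averaged over both Loxl2 fell by 0.84 (-0.84, SE 0.116, limma adjusted p = 0.026), 1 of 26 measured biosynthesis genes against 0.0628% of all genes. That call was kept in 3 of 10 fits that left out 1 array, with estimates of -0.93 to -0.77 and a limma adjusted p of up to 0.378, and the estimates within SD (-0.85, limma adjusted p = 0.22) and F344 (-0.83, limma adjusted p = 0.715) did not pass alone.

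P4ha1 encodes a catalytic subunit of the prolyl hydroxylase that stabilises the collagen helix, an enzyme that needs oxygen and whose gene is a target of hypoxia-inducible factor. It had 8.7 and 8.8 in SD hyperoxia pools, against 9.9, 9.9 and 9.6 in SD room-air pools. In F344 it had 9.1, 10 and 9.4 in hyperoxia pools, against 9.6 and 9.7 in room-air pools. The groups were apart in SD, by -1.05 (SE 0.205, limma adjusted p = 0.22), and overlapped in F344, and the difference of the effects was -0.90 (SE 0.29, limma adjusted p = 0.651). The related gene P4ha2 had estimates below 0 in both strains. They were -0.97 (SE 0.198, limma adjusted p = 0.287) in SD and -0.45 (SE 0.198, limma adjusted p = 0.921) in F344. In F344 P4ha2 had 5.8, 6.4 and 5.8 in hyperoxia pools, against 6.4 and 6.5 in room-air pools. F344 hyperoxia pool 2 was the highest of its group for both genes. Of 26 biosynthesis genes measured, 18 had estimates below 0 in SD and 16 in F344, with medians of -0.13 and -0.04, where 46% and 48.2% of all genes lay below 0. None was called in either strain by limma, and 5 in SD and 3 in F344 had an unadjusted p under 0.05, against 4.68% and 4.91% of all genes. The SD estimates include SD room-air pool 3, in which 7 of the 26 were above all 9 other arrays, against 9.51% of all genes. Against the mean of the other SD room-air pools, 14 of the 26 were higher there and 12 lower (median 0.07). In F344 the smallest p after that of Loxl2 was that of another lysyl oxidase gene, Loxl4, at -0.28 (SE 0.123, limma adjusted p = 0.921).

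Of the 13 measured basement membrane partners, 7 had estimates below 0 in SD and 12 in F344, with medians of -0.10 and -0.15, against 46% and 48.2% of all genes below 0. By limma 0 were called, and 1 of 13 in each strain had an unadjusted p under 0.05, against 4.68% and 4.91% of all genes. Smoc1, a calcium-binding protein of basement membranes, had 7.2 and 7.2 in SD hyperoxia pools, against 7.6, 7.7 and 7.7 in SD room-air pools. In F344 it had 7.6, 7.7 and 7.7 in hyperoxia pools, against 8.0 and 8.1 in room-air pools. Hyperoxia pools lay below room-air pools in both strains, and the averaged difference of -0.43 (SE 0.0698) had a limma adjusted p of 0.0735. The nidogen gene Nid2 followed in SD at -0.28 (SE 0.148), and the laminin gene Lamc1 in F344 at -0.28 (SE 0.153). Nid2 had its highest value, 5.9, in SD room-air pool 3.

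Among 15 measured partners of fibrillar collagen, 13 had estimates below 0 in SD and 9 in F344, against 46% and 48.2% of all genes. None was called by limma, and 2 in each strain had an unadjusted p under 0.05, against 4.68% and 4.91% of all genes. The SD estimates include SD room-air pool 3, in which 10 of the 15 were above all 9 other arrays, against 9.51% of all genes. Fn1, which encodes fibronectin, was called between the strains in room air, as were 0.552% of all genes. It had 8.4, 8.5 and 8.5 in SD room-air pools, against 9.1 and 9.2 in F344 room-air pools, a difference of -0.68 (SE 0.123, limma adjusted p = 0.0284) that kept its call in 2 of 10 fits without 1 array, with estimates of -0.73 to -0.63 and a limma adjusted p of up to 0.401. In hyperoxia it had 8.2 and 8.3 in SD pools, against 8.5, 8.7 and 8.3 in F344 pools, a difference of -0.25 (SE 0.123). Sparc, whose product binds collagen, had the smallest p of this list in SD hyperoxia, at -0.42 (SE 0.123, limma adjusted p = 0.815), followed by Prelp, a matrix proteoglycan gene, at -0.37 (SE 0.147). In F344 hyperoxia the smallest were those of Fn1, at -0.65 (SE 0.123, limma adjusted p = 0.715), and Dcn, at 1.00 (SE 0.429, limma adjusted p = 0.921).

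Collagen receptors gave no call among 9 measured genes by limma, with unadjusted p values under 0.05 for 0 in SD and 1 in F344, against 4.68% and 4.91% of all genes. Estimates were below 0 for 3 of 9 in SD and 7 of 9 in F344, against 46% and 48.2% of all genes. The integrin genes Itga1 and Itga2, whose products bind collagen on the cell surface, had F344 estimates of -0.32 (SE 0.142) and -0.23 (SE 0.133). In SD the smallest p values were those of the inhibitory receptor gene Lair1, at 0.23 (SE 0.144), and the receptor kinase gene Ddr2, at -0.17 (SE 0.16).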

How the data were processed

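Total RNA of 10 retinal pools was hybridised to Affymetrix rat gene arrays. Each probe set has 1 deposited log2 value per array, rounded to 1 decimal, which coarsens small differences. The submitters' processing notes name RMA, a method that includes a summary of the probes of a set, and the program Partek 6.4. Beyond these names, the sources do not detail how the authors corrected background or scaled arrays. All 27342 probe sets entered 1 limma 3.58.1 fit (R 4.3.3) with a mean per group over 10 arrays (6 residual degrees of freedom) and default eBayes, with two-sided p-values adjusted by Benjamini-Hochberg across the whole table and called at 0.05. The fit was tested on simulated data. Genes were named from the 15097 probe sets with 1 symbol in the platform annotation, by the brightest probe set. Precision is limited by how few arrays there are, and no probe-level background was analysed here. Members and lists were chosen with earlier results of these data known.

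Values per array are given for every collagen that passed a contrast, for the 4 with the smallest p in each contrast and for 12 fixed names, of which Col4a2, Col15a1 and Col18a1 were not measured. Of each partner list, genes that passed are named, or otherwise the 2 with the smallest p per hyperoxia contrast. Dcn, Postn, Cryba1, Krt4, Ttr and Tyr beside SD room-air pool 3, and P4ha1 and P4ha2 in the contrast between strains, were chosen after their values were seen. Of 8 same-number pairs between groups compared directly, 1 had correlated deviations above 0.1 (range -0.0733 to 0.108), so replicate numbers were not taken to pair samples. The 3 such pairs of F344 hyperoxia and SD room air, groups that are not compared directly, all did (0.314 to 0.643). Both groups enter the averaged effect and the difference of effects, whose SEs take the pools as independent. The alternatives were each array left out, both arrays numbered 3 left out or given their own term, a replicate block, brighter probe sets, trend and robust eBayes, other normalizations, a gene's probe sets averaged, and only the groups compared. Promoter windows are from RefSeq on GRCr8.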

Additional observations from a re-analysis of the deposited data

How the results depend on the processing

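With 1 array left out at a time, the number of collagens called in each of the 6 contrasts was the same as with all arrays. The hyperoxia estimate in SD then ran between -0.45 and 0.10 for Col1a1 and between -0.65 and 0.05 for Col1a2, where the highest value of each came without SD room-air pool 3 and also held without both arrays numbered 3 (0.10 and 0.05). In F344 it ran between -0.05 and 0.10 for Col1a2 and between -0.13 and 0.07 for Col3a1. The replicate block, and likewise a term for the arrays numbered 3, gave -0.16 for Col1a2 in F344, and the block changed no collagen call. Class medians that moved by at least the s.d. of the class mean between replicates were, for basement membrane collagens, hyperoxia in F344 (-0.27 to -0.13), the difference of effects (0.17 to 0.32) and SD minus F344 in room air (-0.13 to 0), and for fibrillar collagens SD minus F344 in hyperoxia (-0.05 to 0.08). The fibrillar median stayed within that s.d. but ran between -0.10 and 0.10 for SD minus F344 in room air and between -0.18 and 0 for hyperoxia in SD. Keeping only the brighter probe sets left 9 collagens, of them 1 basement membrane (Col4a1) and 5 fibrillar ones, and dropped Col5a3, so that 0 collagens were called between the strains in room air and 0 in hyperoxia. Medians there were, for the basement membrane and fibrillar classes in turn, -0.13 and 0.13 for hyperoxia in SD, -0.27 and 0.05 for hyperoxia averaged over strains, 0.08 and 0.20 for strain in room air, and 0.37 and 0.15 for strain in hyperoxia, and the basement membrane value for hyperoxia in F344 was -0.42. Fitted on the room-air groups alone, 0 collagens were called between the strains (Col5a3 limma adjusted p = 0.156), with fewer samples behind the spread. Loxl2 lost its call in 7 and Fn1 in 8 of 10 fits without 1 array, Fn1 also with the room-air groups alone (limma adjusted p = 0.165), and Loxl2 also without both arrays numbered 3 (limma adjusted p = 0.102) and with arrays centred on their medians (limma adjusted p = 0.0605). Over all probe sets, 12 were called in SD, 1 in F344, 152 between strains in room air and 125 in hyperoxia, against 18, 3, 300 and 199 with the block, 27, 4, 378 and 234 with the added-array term, and as few as 1, 0, 33 and 38 with 1 array left out. Of the other alternatives, trend and robust eBayes, repeated quantile normalization, centring and averaging a gene's probe sets kept the direction and side of the threshold of each collagen result. The cause of these shifts was not tested.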
